A study of Mus musculus with 8 samples.

Results

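A set of 10 genes of the liver stood out in this high-fat diet series as scattered loci with large differences between genotypes, and they are described here in every library and beside their chromosomal neighbours. They were Olfr1033, Olfr1034, Moxd1, E030030I06Rik, Sytl1, Mme, Trmt9b, Rec114, Pnldc1 and Atp8b5, which made 10 of the 18095 genes in the count table. The genes were picked by name with their values already known, so the difference between genotypes in these 10 is given as a description, with no test. They lay on 7 chromosomes, with Olfr1033 and Olfr1034 next to each other. The questions put to the data were how near each gene came to a switch between present and absent, and whether the genes around it differed too.

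RNA-seq libraries came from whole liver of male mice on a high-fat diet (HFD) from before birth, 4 wild type (HFD WT) and 4 homozygous Inpp4b knockouts (HFD Inpp4b-/-), all taken at 12 weeks of age. Inpp4b encodes an inositol polyphosphate phosphatase that removes a phosphate from phosphoinositides and restrains AKT signalling. All mice shared the diet, sex and age. For the strain background, the labels name C57BL/6, whereas the methods of the study state that the mutant line was bred into FVB. Counted reads per library numbered 25893430 to 31427831 in HFD WT. Those labelled HFD Inpp4b-/- were deeper, with 32738435 to 36662531. Inpp4b itself had 6, 20, 5 and 8 counts in HFD WT replicates 1 to 4 and 33, 10, 9 and 14 counts in HFD Inpp4b-/- replicates 1 to 4, so its counts did not fall in the mutant group and did not check the labels. The groups are therefore called libraries labelled HFD WT and HFD Inpp4b-/-. Hepatocyte markers marked the tissue as liver, with 7 of 8 in the table and a summed level between 75901.5 and 81115 CPM in HFD WT and between 78992 and 97686 CPM in HFD Inpp4b-/-. CPM is the count of a gene relative to the total of its library, scaled by edgeR's TMM factors.

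The 10 genes belong to unrelated families. Olfr1033 and Olfr1034 encode olfactory receptors, G protein-coupled receptors whose genes sit in large clusters and are best known from sensory neurons of the nose, where a neuron normally expresses a single receptor allele. Moxd1 encodes a monooxygenase-like protein related to dopamine beta-hydroxylase, Sytl1 a synaptotagmin-like protein that binds Rab27 on secretory vesicles, and Mme the membrane endopeptidase neprilysin. Rec114, Pnldc1 and Atp8b5 are best known from the male germ line, where REC114 takes part in making meiotic DNA breaks, PNLDC1 trims the ends of piRNAs and ATP8B5 is a lipid flippase. Trmt9b belongs to a family of tRNA methyltransferases. E030030I06Rik is annotated as protein coding, and no role is assigned to it here.

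All 10 genes passed the filter on low counts, and none had overlapping groups. Over all 14866 genes tested, 8.72% had groups that did not overlap in CPM, but the 10 were chosen on this contrast, so nothing is read from that count. Libraries labelled HFD Inpp4b-/- had less of 5 of them (Olfr1033, Olfr1034, Moxd1, E030030I06Rik and Sytl1) and more of the other 5 (Mme, Trmt9b, Rec114, Pnldc1 and Atp8b5). Of the 10, only Olfr1033 and Olfr1034 had 0 counts in a whole group. Moxd1 and E030030I06Rik came near to that, with few counts in the lower group and at least 1 library at 0. The other 6 were detected in all 8 libraries, and Atp8b5 differed by a fold of only 2.06, so the name on-off does not describe them.

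The sequence around the start site is shown for the 4 lower genes that have an entry in the RefSeq promoter table, to set the start sites of the lower genes side by side. Each line runs 5′ to 3′ on the strand of the gene, from 250 bases before to 50 bases after the RefSeq start, on GRCm38. Capitals mark matches on either strand to 3 promoter motifs. The TATA box was searched as TATAAA. The second motif, the binding site of NF-Y, was searched as CCAAT. The GC box, a binding site of Sp proteins, was searched as GGGCGG. The windows are, in order, chr2:86046194-86046493 (plus strand), chr10:24223267-24223566 (plus strand), chr10:22149221-22149520 (minus strand) and chr4:133263038-133263337 (minus strand).
Olfr1034: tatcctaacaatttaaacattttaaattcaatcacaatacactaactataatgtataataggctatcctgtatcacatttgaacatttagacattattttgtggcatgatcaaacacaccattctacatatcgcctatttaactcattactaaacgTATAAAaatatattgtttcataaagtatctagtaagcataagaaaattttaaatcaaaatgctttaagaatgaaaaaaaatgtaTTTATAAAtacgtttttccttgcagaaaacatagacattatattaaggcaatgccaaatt
Moxd1: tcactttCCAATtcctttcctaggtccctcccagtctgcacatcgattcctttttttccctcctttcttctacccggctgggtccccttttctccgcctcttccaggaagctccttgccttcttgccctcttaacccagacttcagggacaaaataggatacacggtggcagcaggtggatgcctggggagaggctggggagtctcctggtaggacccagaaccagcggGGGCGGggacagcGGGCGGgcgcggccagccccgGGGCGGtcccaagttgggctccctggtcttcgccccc
E030030I06Rik: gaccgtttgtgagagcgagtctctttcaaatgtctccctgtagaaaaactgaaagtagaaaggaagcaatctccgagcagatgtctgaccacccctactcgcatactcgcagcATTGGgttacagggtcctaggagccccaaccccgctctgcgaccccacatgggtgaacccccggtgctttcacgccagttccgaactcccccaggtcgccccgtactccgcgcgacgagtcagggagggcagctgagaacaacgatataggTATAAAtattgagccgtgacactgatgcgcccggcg
Sytl1: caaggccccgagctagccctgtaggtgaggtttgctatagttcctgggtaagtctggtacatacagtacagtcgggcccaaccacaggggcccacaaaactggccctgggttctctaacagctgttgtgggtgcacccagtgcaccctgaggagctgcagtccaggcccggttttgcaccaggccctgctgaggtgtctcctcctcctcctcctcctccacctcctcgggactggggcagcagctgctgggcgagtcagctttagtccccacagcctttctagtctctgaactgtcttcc
The 4 windows had little in common. Olfr1034 had 3 CpG sites and 24.7% G and C, with TATAAA at positions -94 and -8 and its reverse complement at -10, overlapping the match at -8. Moxd1 had 13 CpG sites and 61.7% G and C, with GGGCGG at -21, -8 and 14 and CCAAT at -243. The E030030I06Rik window had 21 CpG sites and 56.7% G and C, with TATAAA at 15 and the reverse complement of CCAAT at -137. The Sytl1 window had 5 CpG sites and 60% G and C and held none of the 3 motifs. Among the 32851 windows in the table, 13.6% held the TATA box, 37.4% the NF-Y site and 35.7% the GC box on either strand, and the median window had 7 CpG sites and 52.7% G and C. The RefSeq start of Olfr1034 lies inside the longer span of the gene used for counting.

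The olfactory receptor pair was the clearest case of presence and absence. Olfr1033 (ENSMUSG00000045392, chr2:86020633-86045171, plus strand) had 348, 277, 226 and 368 counts in HFD WT replicates 1 to 4 and 0 counts in each of the 4 libraries labelled HFD Inpp4b-/-. Olfr1034 (ENSMUSG00000102091, chr2:86045861-86050742, plus strand) had 148, 82, 125 and 117 counts in HFD WT and again 0 in each library labelled HFD Inpp4b-/-. Both genes were thus read in every library of one genotype and in none of the other, as the plot of all 10 genes by library shows. The count table lists only genes with a read in every library of a genotype. A gene with 0 counts in all libraries labelled HFD Inpp4b-/- is therefore listed only if every HFD WT library has reads, so nothing is read from that part of the pattern.

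**Figure D1:**
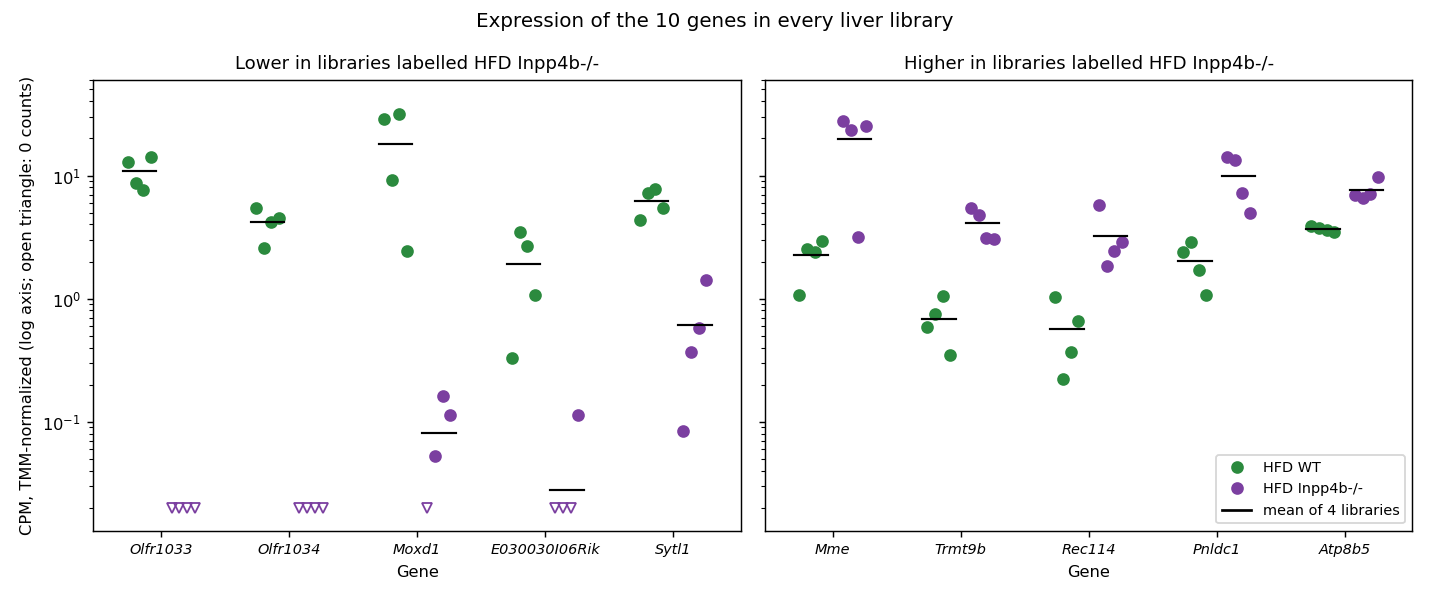
Level of each of the 10 genes in every liver library, in CPM on a log axis, with HFD WT in green, HFD Inpp4b-/- in purple, and a black line at the mean of 4 libraries; open triangles mark libraries with 0 counts. Olfr1033 and Olfr1034 had 0 counts in all 4 libraries labelled HFD Inpp4b-/-, whereas for Mme 1 purple point (3.15 CPM) lies just above the highest green point (2.96 CPM).

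The mean level of Olfr1033 in HFD WT was 10.8 ± 3.15 CPM (SD, n = 4), or 2.54 ± 0.738 RPKM, which divides CPM by the kilobases of exon, close to the median level of 2.75 RPKM over all tested genes. With a floor of 3 counts per library, its level was at least 126-fold lower in the libraries labelled HFD Inpp4b-/-. Olfr1034 had 4.19 ± 1.19 CPM (SD, n = 4) or 0.857 ± 0.245 RPKM in HFD WT, and was at least 48.8-fold lower in the other group. Even the lowest HFD WT library exceeded the floor of the other group by 78.9 times for Olfr1033 and by 26.8 times for Olfr1034. These bounds cover counting error only.

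The pair is adjacent and reads in the same direction. Only 689 bases separate the end of Olfr1033 from the start of Olfr1034. Per kilobase of exon, Olfr1033 was higher than Olfr1034 in each HFD WT library, by 2.69, 3.87, 2.07 and 3.60 times in replicates 1 to 4. The longest exact stretch that their longest transcripts shared was 19 bases, shorter than the reads of 150 bases. Of all windows of 100 bases in the transcripts of each gene, 0.461% for Olfr1033 and 2.13% for Olfr1034 also occurred in another gene's transcript (Olfr1032 and Olfr1036).

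Their surroundings were otherwise almost silent in liver. Within 1 Mb of Olfr1033 the annotation holds 140 genes, 115 of them with an Olfr symbol, and 5 of the 140 were in the count table. The only other Olfr symbol among those 5 was Olfr1029, 41.7 kb from Olfr1033, which had 18, 9, 29 and 71 counts in HFD WT and 8, 10, 4 and 3 counts in the libraries labelled HFD Inpp4b-/-. In CPM its groups did not overlap, with 0.283 CPM in the lowest HFD WT library and 0.263 CPM in the highest one labelled HFD Inpp4b-/-, the same direction as the pair. Olfr1029 had too few counts for the filter of the edgeR test, and DESeq2 called it (log2 fold change -2.73, adjusted p = 0.00949). It was named after its values were seen. The nearest tested genes were far away: Tnks1bp1, 948 kb before Olfr1033, had a log2 fold change of -0.02 (HFD Inpp4b-/- minus HFD WT, SE 0.17), and the pseudogene Gm13736, 1481 kb after it, 0.0092 (SE 0.10), and neither passed edgeR's quasi-likelihood test (adjusted p = 0.968 and 0.977, Benjamini-Hochberg). Markers of the olfactory epithelium did not fall with the pair. Of 6 such markers, 3 were in the table (Omp, Adcy3 and Gnal), Cnga2, Gng13 and Ano2 were not, and their summed level was 0.845 to 1.48 CPM in HFD WT and 1.48 to 2.05 CPM in HFD Inpp4b-/-.

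Moxd1 (ENSMUSG00000020000, chr10:24223517-24302790, plus strand) was abundant but uneven in wild type liver and nearly absent in the other group. It had 774, 290, 939 and 64 counts in HFD WT replicates 1 to 4, and 0, 2, 5 and 4 counts in HFD Inpp4b-/- replicates 1 to 4. The lowest HFD WT library, replicate 4, was still 15.3 times the highest library labelled HFD Inpp4b-/- in CPM, although HFD WT libraries themselves spanned a 12.9-fold range. Mean levels were 17.9 ± 14.3 CPM in HFD WT and 0.0814 ± 0.0701 CPM in HFD Inpp4b-/- (SD, n = 4 each). From the summed counts, with 11 in the lower group, the level was 231 times higher in HFD WT, and the exact Poisson interval of those 11 counts alone allowed 129 to 462 times. In RPKM, 5.61 ± 4.48 in HFD WT made Moxd1 the highest of the 10 genes in either group. No window of 100 bases in its transcripts occurred in another gene.

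E030030I06Rik (ENSMUSG00000097327, chr10:22113050-22149270, minus strand) showed the same kind of pattern at a lower level. Counts were 9, 111, 80 and 28 in HFD WT replicates 1 to 4, and 0, 0, 0 and 4 in HFD Inpp4b-/- replicates 1 to 4. All 4 counts in the lower group thus came from replicate 4, and the HFD WT libraries spanned a 10.5-fold range. Mean levels were 1.90 ± 1.45 CPM in HFD WT and 0.0281 ± 0.0562 CPM in HFD Inpp4b-/- (SD, n = 4 each), and the ratio of the summed counts was 70.0 with a counting interval of 27.3 to 257. Its log2 fold change of -5.89 became -8.91 without HFD Inpp4b-/- replicate 4, a value set by the prior count once no reads remain. Of its windows of 100 bases, 7.92% also occurred in transcripts of 5 other genes (Gm19791, Gm2539, Gm42863, Gm44997 and Dbhos), so reads there could not be assigned to it alone.

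Moxd1 and E030030I06Rik lie on the same chromosome, 2074 kb apart. Over all 8 libraries, edgeR's quasi-likelihood test called none of the 10 tested genes between them. DESeq2 called Raet1d, which lies between them (log2 fold change -2.32, adjusted p = 0.0357). Without HFD WT replicate 1, edgeR's quasi-likelihood test called Vnn3, 354 kb before Moxd1 (-1.11, adjusted p = 0.0409). The HFD WT libraries of Moxd1 and E030030I06Rik ranked differently, with Moxd1 highest in replicate 3 and E030030I06Rik in replicate 2. The nearest tested neighbours of Moxd1 were Stx7, a syntaxin of endosomes, at 33.3 kb with a log2 fold change of 0.16 (SE 0.10), and Ccn2, a matricellular growth factor, at 293 kb with -0.86 (SE 0.43). Neither passed edgeR's quasi-likelihood test (adjusted p = 0.495 and 0.411), and Ccn2 was at -0.23 without HFD WT replicate 1. Beside E030030I06Rik, Raet1e at 9.30 kb had a log2 fold change of 0.54 (SE 0.59, adjusted p = 0.724, edgeR's quasi-likelihood test), and 1.17 without HFD WT replicate 2. On its other side, 113 kb away, was Sgk1, described with the called neighbours.

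Sytl1 (ENSMUSG00000028860, chr4:133253090-133263113, minus strand) was reduced rather than absent. Its counts were 118, 229, 231 and 141 in HFD WT replicates 1 to 4 and 3, 14, 18 and 50 in HFD Inpp4b-/- replicates 1 to 4. The libraries labelled HFD Inpp4b-/- spanned a 16.9-fold range, from 0.0832 CPM in replicate 1 to 1.40 CPM in replicate 4, while those labelled HFD WT stayed within 4.35 to 7.78 CPM. Mean levels of 6.19 ± 1.59 and 0.609 ± 0.568 CPM (SD, n = 4 each) gave a 10.2-fold lower level in HFD Inpp4b-/-. The log2 fold change was -3.34 (SE 0.59), and -4.18 without HFD Inpp4b-/- replicate 4.

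Mme (ENSMUSG00000027820, chr3:63241537-63386030, plus strand) was the most changed of the 5 higher genes, and also the one whose groups came closest. Neprilysin, its product, degrades peptide hormones at the cell surface. Counts were 1007, 893, 98 and 898 in HFD Inpp4b-/- replicates 1 to 4 and 29, 81, 71 and 77 in HFD WT replicates 1 to 4. HFD Inpp4b-/- replicate 3, at 3.15 CPM, stood beside the highest HFD WT library at 2.96 CPM, whereas the other 3 libraries of its group were at 23.5 CPM or more. The means were 19.9 ± 11.3 CPM against 2.24 ± 0.817 CPM (SD, n = 4 each), an 8.90-fold difference. The nearest tested genes, Dhx36 at 735 kb and E130311K13Rik at 529 kb, had log2 fold changes of 0.09 (SE 0.08) and 0.54 (SE 0.22), and neither passed edgeR's quasi-likelihood test (adjusted p = 0.664 and 0.302).

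Trmt9b (ENSMUSG00000039620, chr8:36457548-36516570, plus strand) was higher in every library labelled HFD Inpp4b-/- than in any labelled HFD WT. It had 198, 182, 97 and 108 counts in HFD Inpp4b-/- replicates 1 to 4 and 16, 24, 31 and 9 counts in HFD WT replicates 1 to 4. Every library labelled HFD Inpp4b-/- had at least 2.90 times the CPM of the highest HFD WT library, the widest gap among the 5 higher genes. Mean levels were 4.11 ± 1.23 and 0.684 ± 0.293 CPM (SD, n = 4 each), a 6.01-fold difference. Trmt9b shares chromosome 8 with Inpp4b, 44.8 Mb away. Of the 828 genes tested on that chromosome, 39 were called, beside 174 called (1.17%) over all tested genes. Chromosome 8 held 5.57% of all tested genes. The nearest neighbours of Trmt9b, Lonrf1 (208 kb, log2 fold change 0.02, SE 0.19) and Dlc1 (51.2 kb, 0.30, SE 0.27), did not pass edgeR's quasi-likelihood test (adjusted p = 0.972 and 0.665). The nearest gene called by edgeR other than Trmt9b was Zdhhc2, 3.91 Mb away.

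The germ-line genes Rec114 and Pnldc1 were both higher in the libraries labelled HFD Inpp4b-/-. Rec114 (ENSMUSG00000074269, chr9:58652850-58743964, minus strand) had 209, 70, 75 and 102 counts in HFD Inpp4b-/- replicates 1 to 4 and 28, 7, 11 and 17 counts in HFD WT replicates 1 to 4. Pnldc1 (ENSMUSG00000073460, chr17:12888729-12910230, minus strand) had 506, 513, 223 and 176 counts in HFD Inpp4b-/- and 65, 92, 51 and 28 counts in HFD WT. In CPM, HFD Inpp4b-/- replicate 1 was the highest library for both genes, and the groups did not overlap for either. Rec114 had 3.23 ± 1.76 against 0.569 ± 0.357 CPM, a 5.67-fold difference, and Pnldc1 had 9.91 ± 4.55 against 2.02 ± 0.795 CPM, a 4.90-fold difference (SD, n = 4 each). In RPKM, Pnldc1 reached 3.73 ± 1.71 and Rec114 2.53 ± 1.38 in HFD Inpp4b-/-, on either side of the median tested gene.

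Rec114 overlaps Nptn, which lies on the opposite strand and encodes the adhesion molecule neuroplastin. Of the windows of 100 bases in Rec114 transcripts, 12.7% also occurred in Nptn transcripts, and the strand setting of the counting is not given in the sources used here, so reads of the shared stretch could not be told apart. Nptn had 1845, 1912, 1479 and 1698 counts in HFD Inpp4b-/- and 1268, 1497, 1382 and 1207 in HFD WT. Its log2 fold change was 0.07 and did not pass edgeR's quasi-likelihood test (adjusted p = 0.677). The next tested genes, Cd276 at 97.4 kb and Neo1 at 131 kb, had log2 fold changes of -0.31 (SE 0.27) and 0.012 (SE 0.12), with adjusted p = 0.657 and 0.972 in the same edgeR test. For Pnldc1, the nearest tested genes were Mrpl18, a mitochondrial ribosomal protein gene 1.12 kb away (0.21, SE 0.08), and Mas1, an angiotensin peptide receptor gene 20.6 kb away (1.297, SE 0.60). Neither passed edgeR's quasi-likelihood test (adjusted p = 0.274 and 0.374). The groups of Nptn and Mrpl18 did not overlap in CPM, as for 8.72% of all tested genes, whereas those of Cd276, Neo1 and Mas1 overlapped. The antisense gene AL589878.1 overlaps Pnldc1 and was not in the table.

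Germ cell markers were scarce in both groups. Of 6 germ cell markers, Ddx4, Dazl, Tdrd1 and Mael were not in the table, and Sycp3 and Sycp1 summed to 0.996 to 1.73 CPM in HFD WT and 0.674 to 1.44 CPM in HFD Inpp4b-/-. Sycp3, an axial element protein of meiotic chromosomes, had a log2 fold change of 0.76 (adjusted p = 0.475, edgeR's quasi-likelihood test). Sycp1, the transverse filament of the synaptonemal complex, went the other way, with 8, 46, 25 and 16 counts in HFD WT and 0, 1, 0 and 5 in HFD Inpp4b-/-.

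Atp8b5 (ENSMUSG00000028457, chr4:43267159-43373833, plus strand) had the smallest difference of the 10. Its counts were 250, 252, 218 and 348 in HFD Inpp4b-/- replicates 1 to 4 and 105, 119, 108 and 91 in HFD WT replicates 1 to 4. The HFD WT libraries were very even, at 3.49 to 3.87 CPM, and the libraries labelled HFD Inpp4b-/- lay at 6.62 to 9.77 CPM. Means of 7.59 ± 1.47 and 3.69 ± 0.161 CPM (SD, n = 4 each) gave a 2.06-fold difference. Atp8b5 and Sytl1 share chromosome 4 and lie 89.9 Mb apart. Rusc2, 8.15 kb beyond Atp8b5, had a log2 fold change of 0.19 (SE 0.16) and did not pass edgeR's quasi-likelihood test (adjusted p = 0.633).

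On the log2 scale of the fit across all genes, the 10 differences were -11.43 for Olfr1033, -10.06 for Olfr1034, -7.77 for Moxd1, -5.89 for E030030I06Rik, -3.34 for Sytl1, 3.15 for Mme, 2.57 for Trmt9b, 2.51 for Rec114, 2.29 for Pnldc1 and 1.04 for Atp8b5. Those of Olfr1033 and Olfr1034 depend on the prior count and are no bound. Among the 174 genes called by edgeR's quasi-likelihood test (adjusted p under 0.10 and a fold over 1.3; 1.17% of tested genes, with 0.552% higher and 0.619% lower), 9 of the 43 with a fold over 4 were among the 10, and Atp8b5 ranked 80 by absolute log2 fold change. The 10 were chosen on this contrast, so nothing is read from that count or rank. The median tested gene had an absolute log2 fold change of 0.18.

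For 7 of the 10 genes, edgeR's quasi-likelihood test over all 8 libraries called no tested neighbour. For 4 of these (Moxd1, Mme, Rec114 and Pnldc1) DESeq2 called none either. The 7 include the adjacent genes Olfr1033 and Olfr1034, and the tested neighbours of Olfr1034 (Ssrp1 and Tnks1bp1) were also neighbours of Olfr1033. Within 1 Mb of the 10 genes, 600 other genes are annotated, 177 were in the table and 147 were tested. edgeR's quasi-likelihood test called 5 of the 147 (3.40%, beside 1.17% of all tested genes), each with less in libraries labelled HFD Inpp4b-/- than in HFD WT. The median log2 fold change of the neighbours was -0.03 and the median absolute value 0.19, beside 0.0027 and 0.18 over all tested genes. By edgeR over all 8 libraries, no neighbour of Olfr1033, Olfr1034, Moxd1, Mme, Rec114, Pnldc1 or Trmt9b was called, out of 3, 2, 12, 6, 23, 19 and 7 tested. In the edgeR test 24 of all 147 had an unadjusted p under 0.05, 12 of them among the 42 tested around Sytl1. The share of all tested genes at that level is not given here, so nothing is read from these 24. DESeq2 called 10 of 163 neighbours, beside 688 of the 17016 genes it tested. The 10 called by DESeq2 included Olfr1029 beside the olfactory receptor pair and the noncoding RNA gene Gm16793, 869 kb before Trmt9b (log2 fold change -1.39, DESeq2 adjusted p = 0.0392). The others were Raet1d and Sgk1 beside E030030I06Rik, Unc13b beside Atp8b5, and Smpdl3b, Cep85, Zdhhc18, Wdtc1 and Sfn beside Sytl1. With a library left out, edgeR's quasi-likelihood test called neighbours that included Vnn3 beside Moxd1 (adjusted p = 0.0409 without HFD WT replicate 1). Another was Slc33a1 beside Mme (log2 fold change -0.38, adjusted p = 0.0933 without HFD WT replicate 2, edgeR's quasi-likelihood test). Gm16793, Raet1d, Wdtc1, Sfn, Vnn3 and Slc33a1 were named after their values were seen. Of the 5 nearest tested genes on each side, 2 of 90 were called (2.22%). No set test was made.

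**Figure D2:**
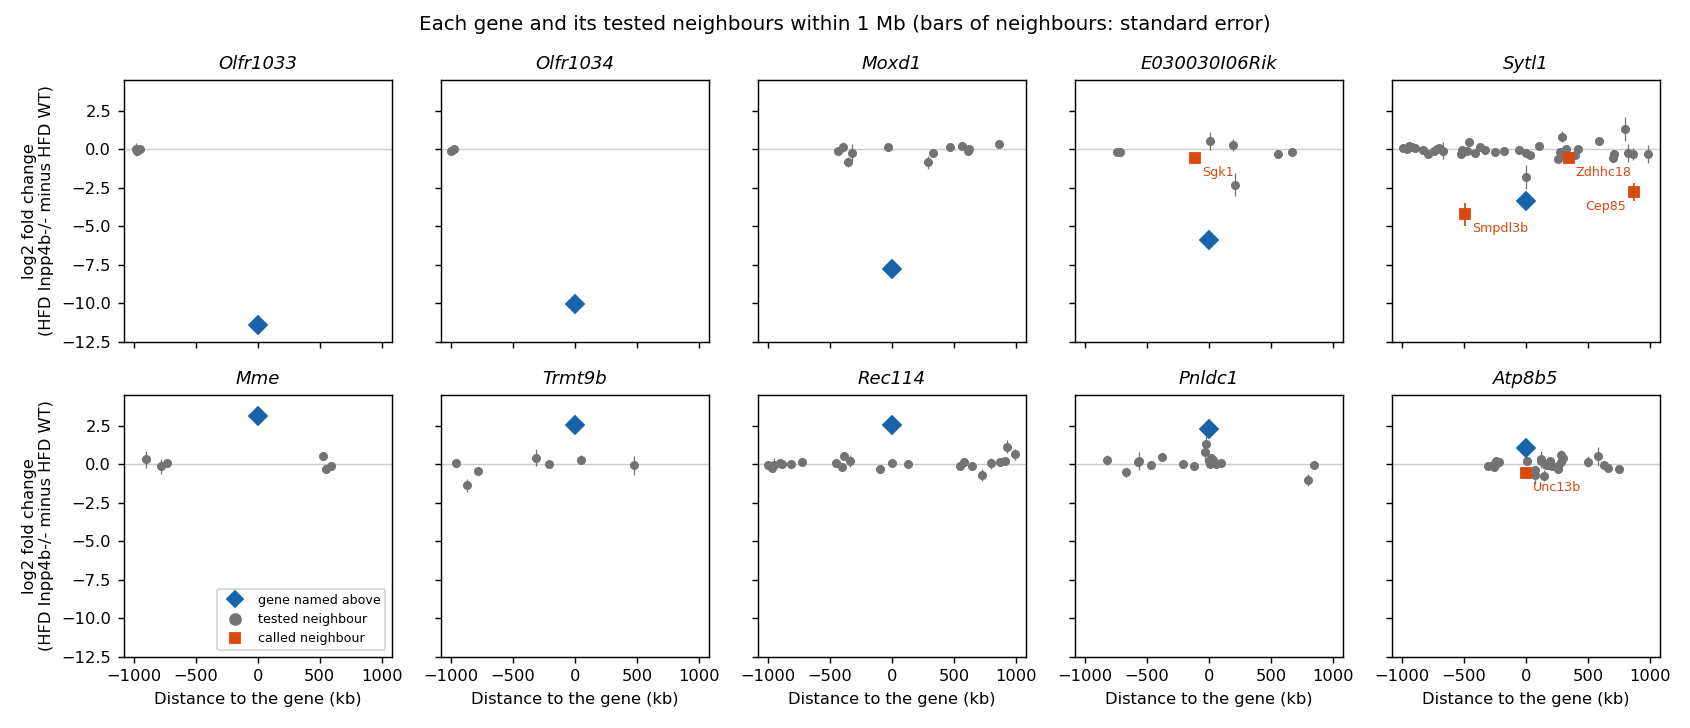
Log2 fold change (HFD Inpp4b-/- minus HFD WT) of each of the 10 genes (blue diamonds) and of its tested neighbours within 1 Mb, against the distance in kb; grey circles were not called, orange squares were called lower, and bars are standard errors. Most neighbours lie near 0, with a median absolute value of 0.19, and 3 of the 5 called neighbours surround Sytl1.

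Called neighbours lay at 3 positions: 3 of the 42 tested around Sytl1 (7.14%), 1 of 27 around Atp8b5 (3.70%) and 1 of 8 around E030030I06Rik (12.5%). Without the neighbours of Sytl1, 2 of 105 were called (1.90%). Smpdl3b, a sphingomyelinase-like membrane enzyme 496 kb before Sytl1 in chromosome order, had 9, 35, 24 and 32 counts in HFD WT and 4, 1, 1 and 0 in HFD Inpp4b-/-. Its level of 0.868 ± 0.398 CPM against 0.0424 ± 0.0478 CPM (SD, n = 4 each) came with a log2 fold change of -4.23 (SE 0.75, edgeR's quasi-likelihood test, adjusted p = 0.0496), over alternatives from 3.97e-05 to 0.291. Groups did not overlap, but the call was lost without HFD Inpp4b-/- replicate 2 or 3, and the log2 fold change was -5.24 without HFD Inpp4b-/- replicate 1.

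Cep85, a centrosomal protein gene 867 kb after Sytl1, had 4787, 941, 862 and 3750 counts in HFD WT replicates 1 to 4 and 508, 428, 387 and 613 in HFD Inpp4b-/- replicates 1 to 4. HFD WT thus fell into a high pair, replicates 1 and 4, and a lower pair, replicates 2 and 3, and all 4 exceeded the other group. Its log2 fold change was -2.78 (SE 0.58, edgeR's quasi-likelihood test, adjusted p = 0.0805), over alternatives from 0.00228 to 0.227. Zdhhc18, a palmitoyltransferase gene 342 kb after Sytl1, was lower by less, at 28.5 ± 5.18 CPM in HFD WT and 19.2 ± 0.675 CPM in HFD Inpp4b-/- (SD, n = 4 each). It had a log2 fold change of -0.57 (SE 0.13, edgeR's quasi-likelihood test, adjusted p = 0.0966), over alternatives from 0.00725 to 0.284. The calls of Cep85 and Zdhhc18 were lost when any of the 4 HFD Inpp4b-/- libraries, or HFD WT replicate 1 or 4, was left out, and that of Zdhhc18 also without HFD WT replicate 2.

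The genes next to Sytl1 did not pass the edgeR test. Map3k6, a stress-activated kinase gene only 0.161 kb away, had 52, 24, 28 and 155 counts in HFD WT and 13, 13, 13 and 56 in HFD Inpp4b-/-, with overlapping groups. Its log2 fold change of -1.82 (SE 0.75) did not pass edgeR's quasi-likelihood test (adjusted p = 0.323), and was -0.83 without HFD WT replicate 4 and -2.66 without HFD Inpp4b-/- replicate 4. Tmem222, 2.93 kb away on the other side, had -0.27 (SE 0.14, adjusted p = 0.405, edgeR's quasi-likelihood test). Beyond it, at 29.3 kb, the groups of Wdtc1 did not overlap. Its log2 fold change of -0.39 (SE 0.10) did not pass edgeR's quasi-likelihood test (adjusted p = 0.162), while DESeq2 called it (adjusted p = 0.047).

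**Figure D3:**
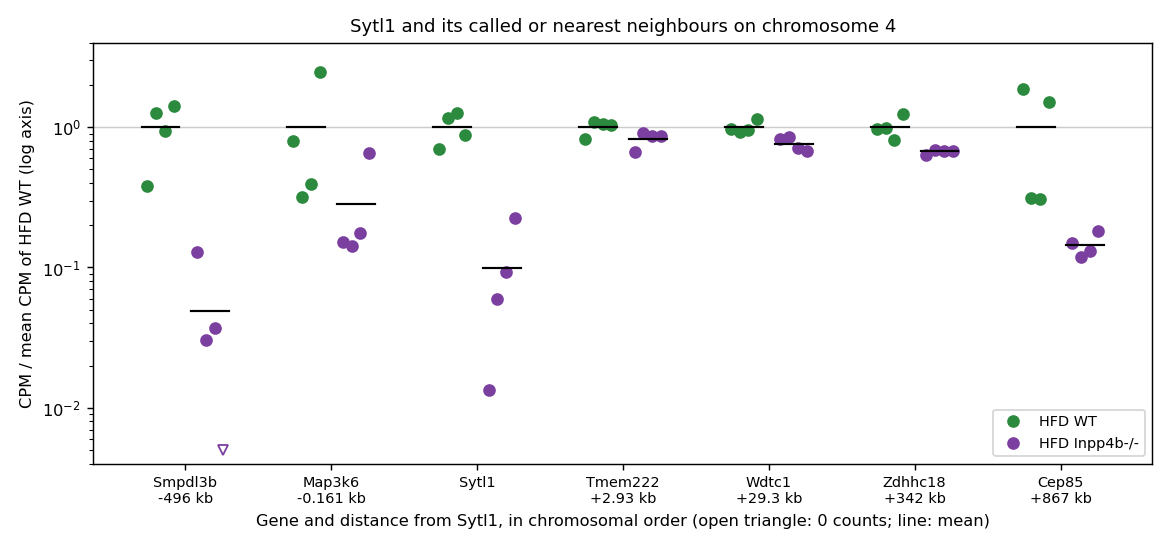
Sytl1 and genes around it on chromosome 4 in chromosomal order, as CPM divided by the mean CPM of HFD WT on a log axis, with HFD WT in green, HFD Inpp4b-/- in purple, lines at group means, and an open triangle at 0 counts. Smpdl3b and Sytl1 lie lowest in the libraries labelled HFD Inpp4b-/-, the Map3k6 groups overlap, and Wdtc1 lies at 0.676 to 0.848 of the HFD WT mean in the libraries labelled HFD Inpp4b-/-.

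The other called neighbours were Unc13b and Sgk1. Unc13b, a gene for a priming factor of vesicle release, lies 2.29 kb before Atp8b5 and was lower where Atp8b5 was higher. It had 489, 418, 527 and 435 counts in HFD WT and 411, 433, 309 and 405 in HFD Inpp4b-/-, or 16.4 ± 2.24 and 11.03 ± 0.721 CPM (SD, n = 4 each). The log2 fold change was -0.57 (SE 0.12, edgeR's quasi-likelihood test, adjusted p = 0.0942), over alternatives from 0.00562 to 0.319. Sgk1, a kinase gene induced by serum and glucocorticoids, had 507, 503, 432 and 482 counts in HFD WT and 435, 389, 367 and 394 in HFD Inpp4b-/-, or 16.9 ± 2.04 and 11.3 ± 0.831 CPM. Its log2 fold change was -0.58 (SE 0.12, edgeR's quasi-likelihood test, adjusted p = 0.0804), over alternatives from 0.00182 to 0.264. Neither call held when any of the 4 HFD Inpp4b-/- libraries, or HFD WT replicate 1 or 4, was left out, and that of Unc13b was also lost without HFD WT replicate 3.

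Relatives of the 10 genes in the same families and pathways were examined next, in 8 lists that leave the 10 out. edgeR's quasi-likelihood test called 0 of the 57 tested relatives, beside 1.17% of all tested genes. In that test 6 of the 57 had an unadjusted p under 0.05. The share of all tested genes at that level is not given here, so nothing is read from these 6. DESeq2 called 3 of 68, beside 688 of the 17016 genes it tested. With so few relatives, nothing about the families is read from these counts. Of 1405 other annotated olfactory receptor symbols, 15 were in the table and 5 were tested, with log2 fold changes from -1.53 to 0.54. Pam, the peptide amidating enzyme and the only tested relative of Moxd1, was at 0.12. For Sytl1, the 7 tested synaptotagmin-like and Rab27 genes ranged from -0.75 to 0.99, and for Mme, the 8 tested membrane peptidases and peptide hormone enzymes ranged from -0.79 to 0.38.

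No relative of the other 4 higher genes passed the edgeR test either. For Rec114, 6 tested genes of meiotic recombination lay between -0.19 and 0.92, and for Trmt9b, 13 tested genes of wobble base modification between -0.33 and 0.42. For Atp8b5, 13 tested flippases and their subunits lay between -1.29 and 0.38. For Pnldc1, 4 tested piRNA pathway genes lay between -0.03 and 1.38. The highest was Gpat2, an acyltransferase-like protein of the germ-line piRNA machinery, with 17, 34, 19 and 32 counts in HFD WT and 67, 65, 98 and 92 in HFD Inpp4b-/-. Its groups did not overlap, but it did not pass edgeR's quasi-likelihood test (adjusted p = 0.134), while DESeq2 called it (adjusted p = 0.00612). The other relatives called by DESeq2 were Sycp1 (log2 fold change -4.25, adjusted p = 0.00075) and Olfr1029 (-2.73, adjusted p = 0.00949), both under the count filter of the edgeR test over all 8 libraries. With a library left out, edgeR's quasi-likelihood test called Sycp1 (adjusted p = 0.0627 without HFD Inpp4b-/- replicate 4) and Olfr1029 (adjusted p = 0.0729 without HFD WT replicate 2). Gpat2, Sycp1 and Olfr1029 were named after their values were seen.

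**Figure D4:**
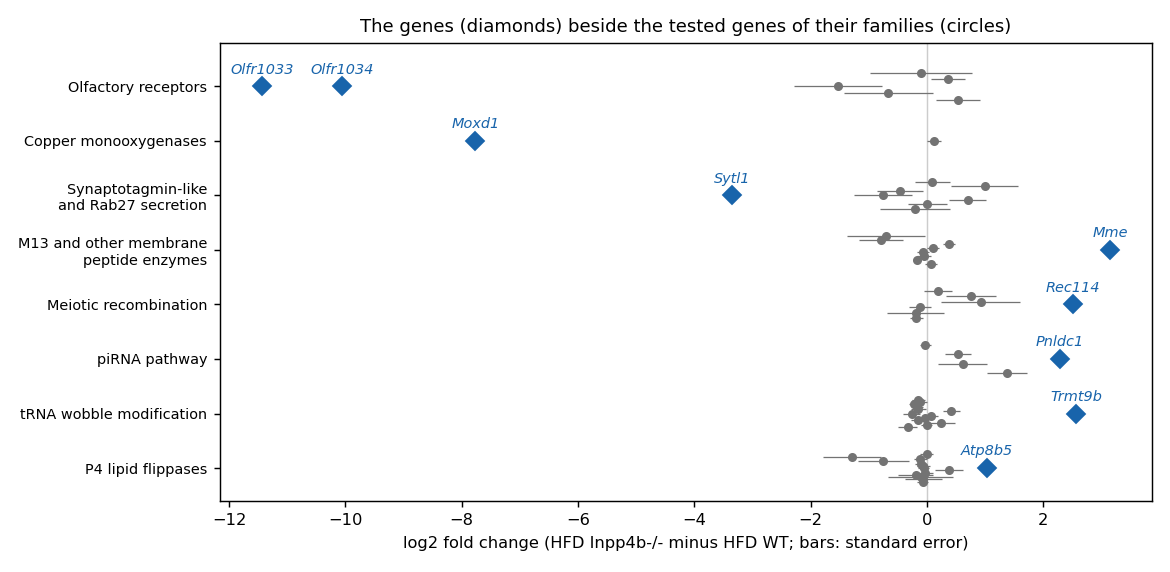
Log2 fold change (HFD Inpp4b-/- minus HFD WT) of the 9 genes with a family list (blue diamonds) beside the tested relatives of each (grey circles, bars are standard errors). None of the 57 relatives was called by edgeR's quasi-likelihood test, which called 1.17% of all tested genes, and the relatives range from -1.53 to 1.38.

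Genes with the highest Pearson correlation of log2 CPM with each of the 10 over the 8 libraries were listed as a description. The libraries differ in genotype, the contrast on which the 10 were chosen, so a high r can come from that contrast alone. For Olfr1033, the closest were Gm10036 (r = 0.990), Gm45910 (0.989) and Zfp868 (0.986), and the same genes led for Olfr1034 (0.988, 0.986 and 0.986). Within genotypes, with the group means removed, r was 0.655 for Gm10036, -0.786 for Gm45910 and 0.105 for Zfp868 with Olfr1033, and 0.521, -0.750 and 0.202 with Olfr1034. Olfr1033 and Olfr1034 had 0 counts in all 4 libraries labelled HFD Inpp4b-/-, so their variation within genotypes lies in the 4 HFD WT libraries alone. Gm10036, Gm45910 and Zfp868 were themselves called lower, with log2 fold changes of -5.39, -8.67 and -1.60 (edgeR's quasi-likelihood test, adjusted p = 0.000715, 0.00787 and 0.000843). For Moxd1 they were Abce1, Tnpo3 and Zfp553 (0.983, 0.983 and 0.978). For E030030I06Rik they were the serotonin receptor gene Htr1d (0.958), 1700017B05Rik (0.957) and Arfgap2 (0.954). Htr1d was called lower as well (-6.82, edgeR's quasi-likelihood test, adjusted p = 0.0117). Sytl1 was followed by Mul1, which is on the same chromosome (0.976), Ciapin1 (0.971) and Zcrb1 (0.969).

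Among the higher genes, Mme was followed by Nudt22 (0.989), 2510002D24Rik (0.958) and Nat8f1 (0.956), none of them called. Rec114 went with R3hdm4 (0.986), Sorl1 (0.981) and Caln1 (0.979), and Pnldc1 with Khdrbs3 (0.993), Tenm3 (0.978) and Lpcat2 (0.978). Trmt9b went with Pcsk4 (0.986), Tmem134 (0.980) and Bbox1 (0.979), and Atp8b5 with Fam167b (0.979), 1110032A03Rik (0.976) and Tecr (0.974). Within genotypes, r for the genes listed with the 8 genes other than the olfactory receptor pair lay between 0.746 and 0.975. The listed genes were picked from all tested genes by their r over the same libraries. A high r within genotypes can therefore come from that choice, and nothing is read from it.

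Markers of other cell types were summed per library, since fewer cells of a type and less RNA per cell cannot be told apart in whole liver. None of the tested markers in 11 lists was called by edgeR's quasi-likelihood test. Apart from the olfactory list, the summed levels overlapped between groups in every list. B cell markers reached 2.63 to 17.4 CPM in HFD WT and 6.72 to 10.5 CPM in HFD Inpp4b-/-. The remaining lists overlapped too: cholangiocytes with 23.7 to 31.6 and 29.7 to 40.6 CPM, Kupffer cells and macrophages with 33.1 to 104.6 and 77.7 to 120.6 CPM, T cells with 0.479 to 1.08 and 0.322 to 1.05 CPM, and endothelial cells with 108.3 to 136.3 and 93.2 to 142.4 CPM, in HFD WT and HFD Inpp4b-/- respectively. Stellate cells and fibroblasts had 164.7 to 223.5 and 171.3 to 232.3 CPM, adipocytes 4.22 to 15.7 and 9.09 to 12.5 CPM with Adipoq, Plin1, Lep, Retn and Cfd not in the table, and exocrine pancreas 32.5 to 59.1 and 42.3 to 58.8 CPM in the same order. The part of these cell types in the differences of the 10 genes was not tested.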

How the data were processed

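Livers of 8 mice were profiled by RNA-seq, as ribosomal RNA-depleted total RNA in paired-end reads of 150 bases. Per the labels and the methods, the authors aligned reads to GRCm38 with HISAT2 and deposited raw counts per gene from HTSeq. They also aligned with STAR, ran DESeq2 on the counts of each aligner, and kept the genes that differed with both. Only the HISAT2 counts were used here, also for DESeq2. The versions of these tools, the annotation release and the strand setting are not given in the sources used here. The deposited normalized table was not used. The table lists only genes with a read in every library of a genotype.

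Genes were placed with GENCODE M21, and all 18095 identifiers matched. Counts were tested with edgeR 4.0.16 in R 4.3.3 (TMM, filterByExpr, quasi-likelihood F test, no covariate, the tool's default prior count), with Benjamini-Hochberg adjustment over 14866 genes. A call was an adjusted p under 0.10 with a fold over 1.3, thresholds taken from the study, whose tool, DESeq2 (1.42.0 here), was an alternative. The biological coefficient of variation was 0.251. The SE of a log2 fold change was its size divided by the square root of the F statistic. RPKM used the union of exons, and correlations used log2 CPM with a prior count of 2. Intervals and floors (95% Poisson, 3 counts) cover counting error only. Sequences came from the RefSeq table for GRCm38.p6, which had entries for 7 of the 10 genes. Scripts were tested on simulated counts.

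The genes, lists and tests were chosen with earlier results of these data known. The result of 1 further marker list is not reported here. Named are the 10 genes, their called and nearest tested neighbours, called relatives, Inpp4b and the 3 genes most alike each. Other settings were normalization, filter, tool, thresholds, the neighbour window, left-out libraries and a replicate block. The labels give each library its own animal, so p-values measure the spread between animals.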

Additional observations from a re-analysis of the deposited data

Results flagged for a closer look

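In 62 groups of 4 libraries, covering the 10 genes and their named neighbours, 5 held a library apart from the other 3 by Dixon's criterion, where about 1 in 20, or 3.1 groups, would do so by chance. Atp8b5 was at 9.77 CPM in HFD Inpp4b-/- replicate 4, above 6.62 to 7.01 CPM in the others of its group. In the same library E030030I06Rik was at 0.112 CPM, from 4 counts, against 0 in the other 3. Map3k6, the neighbour of Sytl1, was also highest there, at 1.57 CPM beside 0.342 to 0.418 CPM. Unc13b was at 9.94 CPM in HFD Inpp4b-/- replicate 3, below 11.4 CPM in each of the others. Cd276, near Rec114, was at 2.54 CPM in HFD WT replicate 1, below 5.54 to 6.06 CPM in the others. The cause of these values was not tested.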

How the results depend on the processing

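For the 10 genes, 127 of 130 log2 fold changes under other settings moved by less than the spread between replicates, and none changed sign. The 3 others were Olfr1033 (-11.02) and Olfr1034 (-9.65) with DESeq2 and E030030I06Rik (-8.91) without HFD Inpp4b-/- replicate 4. The filter of at least 10 counts in every library was not among these settings. Olfr1033, Olfr1034, Moxd1, E030030I06Rik, Sytl1, Rec114 and Trmt9b did not meet that filter. Counts of calls moved more. Over all genes, 174 became 688 with DESeq2, 71 at an adjusted p under 0.05, and 53 to 345 when each library was left out. Among neighbours within 1 Mb, 5 became 10 with DESeq2, 3 each with upper quartile normalization, no filter or at least 10 counts in every library, 1 at an adjusted p under 0.05, and 0 to 6 with a library left out (0 without HFD Inpp4b-/- replicate 2 or 3). It was 4 of 79 within 0.5 Mb and 6 of 260 within 2 Mb. The 2 nearest neighbours called became 7 with DESeq2, 1 with upper quartile normalization or no filter, 0 at an adjusted p under 0.05, and 0 to 4 with a library left out. The 0 relatives called became 3 with DESeq2 and 0 to 1 with a library left out (Sycp1 without HFD Inpp4b-/- replicate 4, Olfr1029 without HFD WT replicate 2). With the replicate block, 26 genes, 0 neighbours within 1 Mb, 0 nearest neighbours and 0 relatives were called, but libraries of the same number did not deviate together (correlations -0.17 to -0.0104), so the numbers do not pair them. In all, 4 neighbours near 0 changed sign: Tnks1bp1 (0.0013 with upper quartile normalization, -0.17 to 0.078 with a library left out), Gm13736 (-0.076 to 0.058), Neo1 (-0.058 to 0.081) and Lonrf1 (-0.085 to 0.16). Causes were not tested. A gene of few counts, such as Smpdl3b or E030030I06Rik, is limited by counting error as well as by 4 animals a group.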

Other observations

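The called gene nearest to each of the 10, other than the 10 themselves, lay at very different distances. For Sytl1, Atp8b5 and E030030I06Rik it was a neighbour within 1 Mb, and for Moxd1 it was Smlr1, 1.23 Mb away and higher in the libraries labelled HFD Inpp4b-/- (log2 fold change 0.81), against the direction of Moxd1. For Rec114 it was Acat1, a gene of mitochondrial acetoacetyl-CoA thiolysis, 5.04 Mb away (0.45). For the pair Olfr1033 and Olfr1034 it was the peroxisome assembly gene Pex16, 6.33 and 6.32 Mb away (0.63). For Mme it was Noct, a circadian gene, 12.0 Mb away (-1.48), and for Pnldc1 it was Pknox1, 18.7 Mb away (-0.63). These genes were named after their values were seen.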
